A study of Mus musculus with 8 samples.

Results

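The 63 genes described here carry symbols of 7 solute carrier families (Slc1, Slc3, Slc6, Slc7, Slc36, Slc38 and Slc43) whose members mostly move amino acids across membranes. They were taken by symbol alone, from symbols beginning with Slc1a, Slc3a, Slc6a, Slc7a, Slc36a, Slc38a or Slc43a in the annotation of the array, and make up 63 of 18193 genes that had a probe set naming 1 gene. The rule used no expression value, but the genes were chosen with earlier results of these data known. Slc6 gave 21 genes, Slc7 16, Slc38 9, Slc1 7, Slc36 5, Slc43 3 and Slc3 2. The symbols also take in carriers of other cargo, such as the creatine transporter Slc6a8 and the purine base transporter Slc43a3, and 3 symbols ending in os (Slc36a1os, Slc6a19os and Slc7a6os), which are no transporter genes.

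Cells take up most amino acids through carriers that differ in cargo and in what drives them. Carriers of the Slc1, Slc6 and Slc38 families mostly couple uptake to sodium, some of Slc36 couple it to protons, and many of Slc7 exchange 1 amino acid for another and reach the membrane only when bound to a heavy chain, Slc3a2 or Slc3a1. Intracellular amino acids in turn set the activity of the mTORC1 kinase and of the translation-controlled factor ATF4, and mouse embryonic stem cells (ESCs) are known for their dependence on some of them, threonine among these.

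The study hybridised RNA of 8 samples in 4 groups of 2 to Affymetrix mouse arrays. Control ESCs were parental Blimp1mVenus/Tfap2c flox/flox lines, in which the floxed gene for the transcription factor TFAP2C was intact, and knockout ESCs were Blimp1mVenus/Tfap2c-/- cells obtained from these by transient transfection with a pGK-Cre plasmid. Control and knockout primordial germ cell-like cells (PGCLCs, labelled PGC) were made in culture from such ESCs by way of epiblast-like cells and sorted for the Blimp1mVenus reporter, which all 4 groups carry. The comparisons ask how loss of Tfap2c altered expression in each cell type and how the control cell types differed. The study put 2 ESC lines and their knockout derivatives on the arrays, but which line a sample numbered 1 or 2 came from is not stated in its label, and with 2 samples a group p-values measure only the spread between these samples. The time at which PGCLCs were collected is not given in the labels.

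All values are the deposited log2 expression values, and a gene is represented by its probe set of highest mean level. Array medians ran from 3.47 to 3.55. Tfap2c itself read 7.88 and 9.14 in control ESCs, 7.28 and 6.47 in knockout ESCs, 9.84 and 10.29 in the control PGCLCs and 8.52 and 8.85 in the knockout PGCLCs. The knockout samples lay below the controls in each cell type, by -1.38 (SE 0.42, adjusted p = 0.15, limma) in PGCLCs and by -1.63 (SE 0.42, adjusted p = 1.0, limma) in ESCs, and neither difference passed. Whether its probe sets lie in the deleted part of the gene is not given. The paper checked its ESC lines by other means, with genotyping by PCR and staining for the TFAP2C protein. It also ran RT-PCR on the PGCLCs. The legend states that the knockout PGCLCs gave no signal, though the gene meant is not named there. Control PGCLC sample 2 stood apart in the array controls, with a mean of 8.08 on the poly-A spike probe sets against 5.62 to 7.58 on the other arrays and a Gapdh 3′ to 5′ difference of 0.95 against 0.31 to 0.52. Spike means were also higher in the knockout PGCLCs, at 7.58 and 6.84, than in any ESC sample, where they ran from 5.62 to 6.11. The part of these array features in the results was not tested.

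Of the 63 genes, 36 reached a group mean above the overall median of 3.52 in at least 1 group (57.1%, against 67.1% of all genes), and 27 did not, so that their values lay at the low end of the scale where differences are compressed. The share above the median was 7 of 21 in Slc6 and 8 of 16 in Slc7, but 8 of 9 in Slc38, 5 of 5 in Slc36 and 5 of 7 in Slc1. In Slc36, however, Slc36a2 and Slc36a3 barely exceeded it, with highest group means of 3.53 and 3.59, and Slc36a1os is no transporter gene. For 40 genes the whole range over the 8 arrays was under 1 on the log2 scale. Only 8 genes had a mean above 8 (Slc38a2, Slc6a6, Slc7a3, Slc7a5, Slc3a2, Slc38a1, Slc7a1 and Slc38a10). Since probe sets differ in how well they bind, these levels give no exact ranking between genes.

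**Figure D1:**
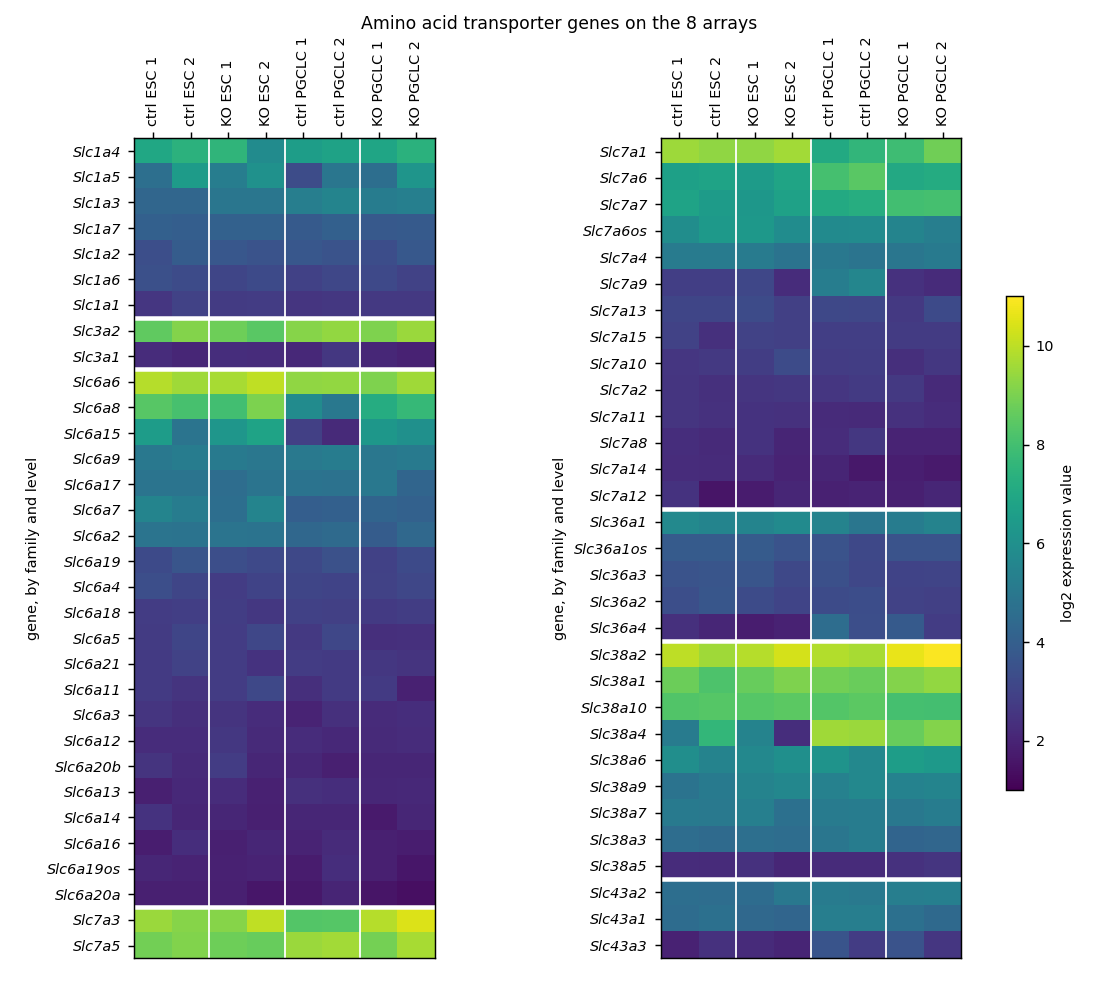
Heat map of the log2 expression values of all 63 genes (rows, by family, with white lines between families) on the 8 arrays (columns; ctrl, control; KO, Tfap2c-/-). Most rows kept their colour across all arrays, while Slc6a15, Slc6a8, Slc7a9, Slc1a5 and Slc38a4 changed by more than 3 from lowest to highest.

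Loss of Tfap2c in PGCLCs changed 6 of the 63 genes (9.52%), where 3.09% of all genes tested passed limma at an adjusted p under 0.05. The neutral amino acid transporters Slc6a15 and Slc38a2, the creatine transporter Slc6a8 and the cationic amino acid transporter Slc7a3 rose (background for higher, 1.29%), and the exchangers Slc7a6 and Slc7a9 fell (background for lower, 1.8%). The other genes did not pass, and 14 of the 63 (22.2%) had an unadjusted p under 0.05, where 15.7% of all genes did. The median difference over the 63 genes was -0.12, beside -0.04 over all genes. A log2 difference above 1.5 was reached by 4 genes (Slc6a15, Slc6a8, Slc7a3 and Slc7a9), where 1.95% of all genes reached it. In ESCs limma called 0 of the 63 genes and 0 of all genes (background 0%), while 3 genes (Slc1a3, Slc38a4 and Slc38a9) had an unadjusted p under 0.05 (4.76%, background 2.5%).

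**Figure D2:**
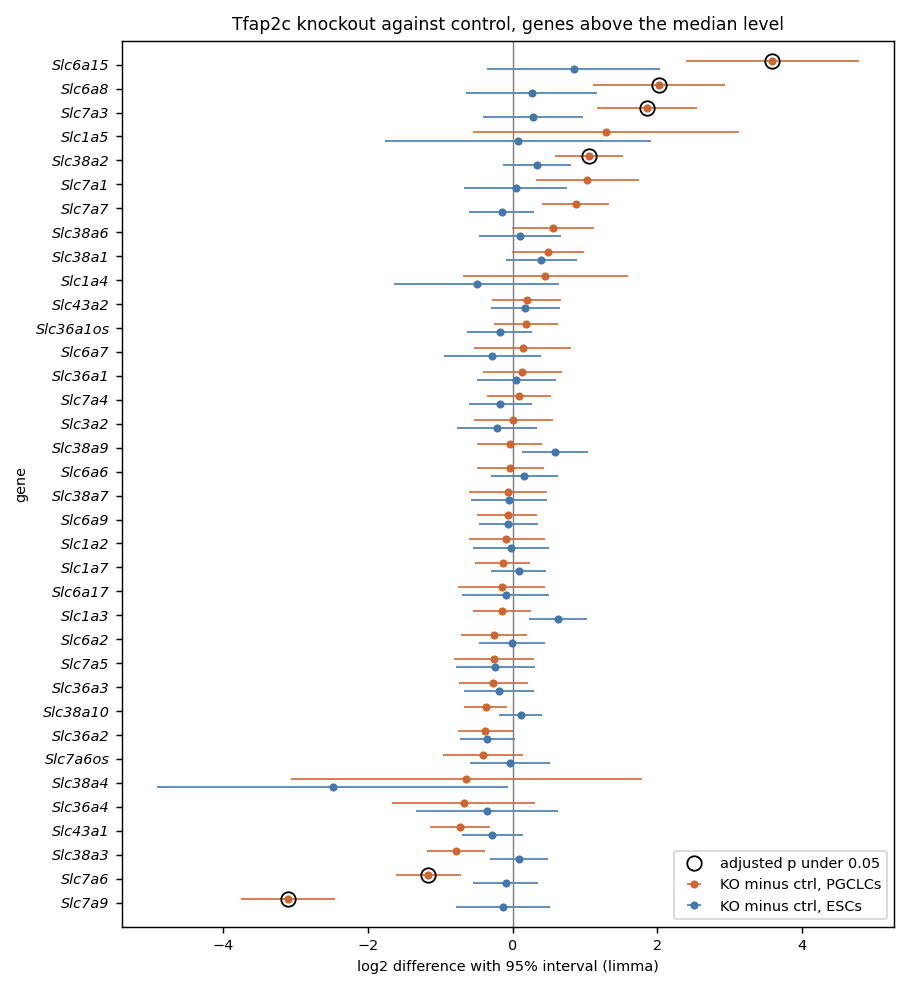
Log2 difference between knockout and control (horizontal axis) with its 95% interval from limma in PGCLCs (orange) and in ESCs (blue), for the 36 genes with a group mean above the overall median; circles mark genes past an adjusted p of 0.05. The 6 circled genes are all PGCLC values, from -3.10 for Slc7a9 to 3.59 for Slc6a15.

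Among the exchangers that need a heavy chain, Slc7a9 showed the clearest loss. It is the light chain that, bound to Slc3a1, carries cystine and cationic amino acids. Slc7a9 read 5.25 and 5.59 in the control PGCLCs and 2.41 and 2.22 in the knockout PGCLCs, against 2.84 and 2.84 in control ESCs and 3.13 and 2.26 in knockout ESCs. Only the control PGCLCs stood out, and their values did not overlap with those of any other group. In PGCLCs Slc7a9 fell by 3.10 (SE 0.28, 95% interval -3.75 to -2.45, adjusted p = 0.00279, limma), and control PGCLCs lay 2.58 above control ESCs (SE 0.28, adjusted p = 0.0034, limma). The ESC difference was -0.14, and the difference between the effects in the 2 cell types was -2.96 (SE 0.40, adjusted p = 0.0511, limma), which did not pass. All ESC values of Slc7a9 lay below the overall median, where a fall could hardly have been seen. The size of the difference between the effects is therefore limited by the low end of the scale. Slc7a9 has 1 probe set on the array. The call in PGCLCs held without any of the 8 arrays in turn, with differences from -3.28 to -2.93. The heavy chain Slc3a1 read between 1.95 and 2.64 on all arrays, below the overall median.

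Slc7a6, the y+LAT2 exchanger that trades cationic for neutral amino acids with Slc3a2, moved the same way. It read 8.07 and 8.43 in the control PGCLCs and 7.02 and 7.14 in the knockout PGCLCs, and 6.70, 6.82, 6.47 and 6.85 in the control and knockout ESCs. The control PGCLCs lay above all other samples, and the knockout PGCLCs lay slightly above the ESCs. Slc7a6 fell by 1.17 in PGCLCs (SE 0.19, adjusted p = 0.0233, limma), with control PGCLCs 1.49 above control ESCs (SE 0.19, adjusted p = 0.006, limma). Its other probe set gave -0.86 in PGCLCs (adjusted p = 0.116 over all probe sets, limma), and 1.06 between the control cell types. The opposite-strand gene Slc7a6os differed by -0.41 in PGCLCs and did not pass, but its dimmer probe set gave -1.44 in PGCLCs (adjusted p = 0.0478 over all probe sets, limma) and 1.77 between the control cell types, in the directions of Slc7a6.

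Its close relative Slc7a7, the y+LAT1 exchanger, went the other way. It read 6.81 and 6.49 in control ESCs, 6.29 and 6.71 in knockout ESCs, 7.07 and 7.24 in the control PGCLCs and 7.99 and 8.06 in the knockout PGCLCs. The knockout PGCLCs held the highest values without overlap. The knockout difference in PGCLCs was 0.87 (SE 0.20, adjusted p = 0.0639, limma) and did not pass, while knockout PGCLCs exceeded knockout ESCs by 1.52 (SE 0.20, 95% interval 1.07 to 1.98, adjusted p = 0.0153, limma). Slc7a7 alone among the 63 genes was called between the knockout cell types (1.59%, background 2.32%, of which 1.35% higher), and it was not called there when either knockout PGCLC sample was left out.

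The uniporters for arginine and lysine gave a further pattern. Slc7a3 read 9.48 and 9.18 in control ESCs, 9.17 and 10.05 in knockout ESCs, 8.31 and 8.35 in the control PGCLCs and 9.89 and 10.49 in the knockout PGCLCs. Control PGCLCs were the lowest group, and the knockout PGCLCs overlapped with the knockout ESCs. Slc7a3 rose by 1.86 in PGCLCs (SE 0.30, 95% interval 1.17 to 2.55, adjusted p = 0.0207, limma), while the difference of -1.0 between control PGCLCs and control ESCs did not pass. Slc7a1, which has the same cargo, read 9.53 and 9.35 in control ESCs and 9.35 and 9.61 in knockout ESCs, against 7.08 and 7.59 in the control PGCLCs and 7.90 and 8.84 in the knockout PGCLCs. All PGCLC samples thus lay below all ESC samples. Control PGCLCs were 2.11 below control ESCs (SE 0.31, adjusted p = 0.00829, limma), and the knockout difference of 1.03 in PGCLCs (SE 0.31, adjusted p = 0.139, limma) did not pass. The other well-measured probe set of Slc7a1 gave -2.17 and 0.81 for these comparisons, while that with a mean of 2.5 gave 0.02 and -0.04.

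The heavy chain Slc3a2 and its leucine-carrying partner Slc7a5 were measured at a high level in all groups. Slc3a2 read 8.57 and 9.14 in control ESCs, 8.81 and 8.46 in knockout ESCs, 9.18 and 9.38 in the control PGCLCs and 9.06 and 9.51 in the knockout PGCLCs. Slc7a5 ran from 8.69 to 9.70. Their knockout differences did not pass in either cell type. Control PGCLCs lay above control ESCs by 0.42 for Slc3a2 and 0.58 for Slc7a5. Knockout PGCLCs lay above knockout ESCs by 0.65 and 0.56, and none of these differences passed either. The cystine importer Slc7a11 lay between 2.21 and 2.56 on every array, and Slc7a2, Slc7a8, Slc7a10 and Slc7a12 to Slc7a15 also stayed below the overall median in every group mean.

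Promoter sequences were available for 46 of the 63 genes in RefSeq (GRCm38.p6). Slc7a6 and Slc7a9 fell in the PGCLC knockout, while the differences of Slc7a7 and Slc7a1 were positive but did not pass. The promoters of these related exchangers and uniporters are shown because of this difference in sign, together with that of Slc38a2, described next. Each is the 250 bases before the first listed gene start, 5′ to 3′ on the strand of the gene, at chr8:106168604-106168853 (+ strand) for Slc7a6, chr7:35448842-35449091 (+ strand) for Slc7a9, chr14:54417945-54418194 (- strand) for Slc7a7, chr5:148399905-148400154 (- strand) for Slc7a1 and chr15:96699729-96699978 (- strand) for Slc38a2. Capitals mark matches, on either strand, to the AP-2 motif that TFAP2C is known to bind, as GCCNNNGGC (a spacer of 3) or with 4 bases between GCC and GGC, or to TGATGNAAN, the element that ATF4 is known to bind with C/EBP factors.
Slc7a6: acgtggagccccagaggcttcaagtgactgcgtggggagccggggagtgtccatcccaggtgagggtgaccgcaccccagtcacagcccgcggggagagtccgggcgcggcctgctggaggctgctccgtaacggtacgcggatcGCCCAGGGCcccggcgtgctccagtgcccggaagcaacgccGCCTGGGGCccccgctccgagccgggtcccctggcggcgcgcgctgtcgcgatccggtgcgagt
Slc7a9: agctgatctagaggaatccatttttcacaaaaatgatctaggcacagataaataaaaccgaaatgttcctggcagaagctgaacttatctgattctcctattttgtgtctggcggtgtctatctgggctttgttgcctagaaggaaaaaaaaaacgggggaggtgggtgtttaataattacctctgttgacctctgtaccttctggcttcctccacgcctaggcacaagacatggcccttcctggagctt
Slc7a7: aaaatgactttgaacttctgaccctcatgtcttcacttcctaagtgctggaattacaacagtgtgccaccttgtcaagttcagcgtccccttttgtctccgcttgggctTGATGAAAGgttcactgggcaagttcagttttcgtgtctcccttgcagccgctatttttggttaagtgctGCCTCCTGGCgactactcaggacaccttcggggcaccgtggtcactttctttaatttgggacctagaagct
Slc7a1: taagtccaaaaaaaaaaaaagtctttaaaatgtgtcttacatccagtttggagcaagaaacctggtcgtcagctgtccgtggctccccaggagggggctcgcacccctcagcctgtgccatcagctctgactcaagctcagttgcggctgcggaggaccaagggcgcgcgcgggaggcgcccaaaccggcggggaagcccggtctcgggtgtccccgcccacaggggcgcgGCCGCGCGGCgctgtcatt
Slc38a2: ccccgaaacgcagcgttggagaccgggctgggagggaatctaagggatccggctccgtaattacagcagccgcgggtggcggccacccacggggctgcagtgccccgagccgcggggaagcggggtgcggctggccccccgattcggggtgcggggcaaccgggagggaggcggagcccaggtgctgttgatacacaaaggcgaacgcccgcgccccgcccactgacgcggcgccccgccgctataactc
Slc7a6 held 2 matches to the AP-2 motif with a spacer of 3, Slc7a1 and Slc7a7 held 1 match each to that with a spacer of 4, Slc7a7 also held 1 match to the ATF4 element, and Slc7a9 and Slc38a2 held none of these letters in this window. Of all 32851 promoters, 13.7% held the motif with a spacer of 3, 12.3% that with a spacer of 4, and 3.44% the ATF4 element. Among the 67 promoters listed for the transporter genes, 13 (19.4%), 12 (17.9%) and 4 (5.97%) did. The motifs with a spacer of 3 and of 4 can overlap, and a gene with several starts is counted once for each start. A match is a description of the sequence and does not show that a factor was bound.

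The sodium-coupled Slc6 family held the largest rise. Slc6a15 is a transporter of branched-chain and other neutral amino acids, best known in neurons. It read 6.51 and 4.86 in control ESCs, 6.24 and 6.82 in knockout ESCs, 2.91 and 2.18 in the control PGCLCs and 6.28 and 6.0 in the knockout PGCLCs. The control PGCLCs were at the low end of the scale, without overlap with any other group, and the knockout PGCLCs lay within the range of the ESCs. Slc6a15 rose by 3.59 in PGCLCs (SE 0.51, 95% interval 2.40 to 4.79, adjusted p = 0.0147, limma), about as far as control PGCLCs lay below control ESCs, which was -3.14 (SE 0.51, adjusted p = 0.0128, limma). These 2 comparisons share the control PGCLC samples and are not independent. The ESC difference was 0.85, and the difference between the effects, 2.75 (SE 0.73, adjusted p = 0.29, limma), did not pass. Slc6a15 has 1 probe set on the array.

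Slc6a8, which takes up creatine, was also lowest in control PGCLCs. It read 8.39 and 8.09 in control ESCs, 7.98 and 9.01 in knockout ESCs, 5.84 and 5.01 in the control PGCLCs and 7.20 and 7.69 in the knockout PGCLCs. The knockout PGCLCs lay between the control PGCLCs and the ESCs without overlap. Slc6a8 rose by 2.02 in PGCLCs (SE 0.39, adjusted p = 0.0386, limma), and control PGCLCs lay 2.81 below control ESCs (SE 0.39, adjusted p = 0.00713, limma). Its other probe set gave a smaller difference of 0.85 in PGCLCs (adjusted p = 0.115 over all probe sets, limma). With the mean of both probe sets in place of the higher, the difference was 1.43 and did not pass.

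The taurine transporter Slc6a6, the family member with the highest mean, ran from 9.06 to 10.06 over the arrays, and its difference was -0.04 in PGCLCs and 0.16 in ESCs. The brain proline transporter Slc6a7 read 5.5 and 5.20 in control ESCs, 4.62 and 5.52 in knockout ESCs, 3.99 and 4.05 in the control PGCLCs and 4.21 and 4.12 in the knockout PGCLCs. All PGCLC samples lay below all ESC samples. Control PGCLCs were 1.33 below control ESCs (SE 0.29, adjusted p = 0.0333, limma), and the knockout difference in PGCLCs was 0.14. The glycine transporter Slc6a9 kept within 4.96 to 5.20, and 14 of the 21 genes of this family, among them the transporters of dopamine (Slc6a3) and serotonin (Slc6a4), did not exceed the overall median in any group mean.

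In the Slc38 family, whose carriers take up glutamine, alanine and other small neutral amino acids, Slc38a2 rose. It read 9.99 and 9.57 in control ESCs, 9.88 and 10.34 in knockout ESCs, 9.83 and 9.68 in the control PGCLCs and 10.65 and 10.96 in the knockout PGCLCs. The knockout PGCLCs held the highest values, above those of all other samples, whereas control PGCLCs and control ESCs overlapped. The difference was 1.05 in PGCLCs (SE 0.20, 95% interval 0.58 to 1.52, adjusted p = 0.0384, limma), 0.33 in ESCs and -0.02 between the control cell types. Of its other probe sets, 1 gave 1.06 and the dimmest, with a mean of 4.01, gave 0.03. Slc38a1, which carries similar cargo, read 8.86 and 8.71 in the control PGCLCs and 9.16 and 9.38 in the knockout PGCLCs, a difference of 0.49 that did not pass. Slc38a3, a glutamine carrier of liver and brain, read 4.94 and 5.18 in the control PGCLCs and 4.24 and 4.30 in the knockout PGCLCs, a difference of -0.79 (SE 0.17, adjusted p = 0.0563, limma). The lysosomal carriers Slc38a7 and Slc38a9, and Slc38a10, ranged over less than 1 on the log2 scale.

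Slc38a4, an imprinted gene for a carrier of neutral and cationic amino acids, had the widest range of the 63 genes, from 2.3 to 9.58, with a wide spread between ESC samples of the same group. It read 5.15 and 7.61 in control ESCs and 5.47 and 2.3 in knockout ESCs, but 9.58 and 9.51 in the control PGCLCs and 8.67 and 9.14 in the knockout PGCLCs. All PGCLC samples lay above all ESC samples, while the control and knockout ESCs overlapped. Slc38a4 alone among the 63 genes lay beyond 1.5 on the log2 scale in ESCs (background 0.132%), at -2.49 (SE 1.04, adjusted p = 1.0, limma). This value moved between -4.08 without knockout ESC sample 1 and -0.90 without knockout ESC sample 2. Control PGCLCs lay 3.17 above control ESCs (SE 1.04, adjusted p = 0.113, limma), which did not pass. On its other probe set, which read 3.99 and 6.25 in control ESCs and 8.99 and 9.20 in control PGCLCs, that difference was 3.97 and passed when all probe sets were tested (SE 0.74, adjusted p = 0.0221, limma). Between the knockout cell types the difference was 5.02 (SE 1.04, adjusted p = 0.056, limma), where Slc38a4 and Slc7a7 were the 2 genes beyond 1.5 (3.17%, background 2.18%). The other probe set gave 4.18 there and passed (SE 0.74, adjusted p = 0.0407 over all probe sets, limma). The knockout difference in PGCLCs was -0.64 (SE 1.04, adjusted p = 0.853, limma). On the other probe set, at 7.52 and 7.61 in knockout PGCLCs, it was -1.52 (SE 0.74, adjusted p = 0.431 over all probe sets, limma). Neither passed.

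**Figure D3:**
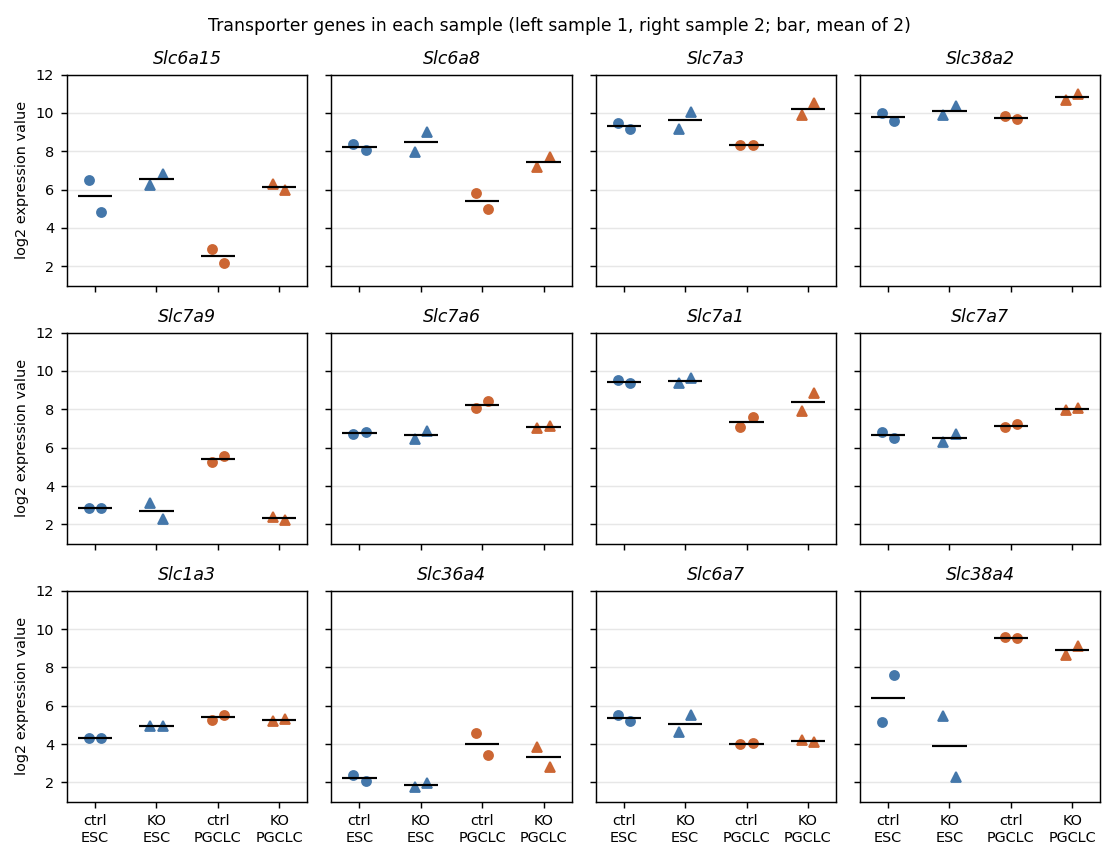
Log2 expression value (vertical axis) of 12 transporter genes in control (circles) and Tfap2c-/- (triangles) ESCs (blue) and PGCLCs (orange), 1 point per sample with the group mean as a bar. Slc6a15 and Slc6a8 were lowest in control PGCLCs, Slc7a9 was high there alone, and the ESC samples of Slc38a4 spread from 2.3 to 7.61.

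The glutamate and neutral amino acid carriers of the Slc1 family gave no knockout call. Slc1a4, a serine and alanine exchanger and the family member with the highest mean, read 6.94 and 7.43 in control ESCs, 7.53 and 5.84 in knockout ESCs, 6.57 and 6.77 in the control PGCLCs and 6.86 and 7.38 in the knockout PGCLCs. Knockout ESCs spanned all other groups, with knockout ESC sample 2 the lowest, and control PGCLCs lay below control ESCs and knockout PGCLCs. Slc1a5, which exchanges glutamine, read 4.65 and 6.48 in control ESCs, 5.22 and 6.06 in knockout ESCs, 3.32 and 4.92 in the control PGCLCs and 4.60 and 6.21 in the knockout PGCLCs. In every group the sample numbered 2 was the higher, and the control and knockout samples of each cell type overlapped. Its knockout difference in PGCLCs was 1.29 (SE 0.79, 95% interval -0.55 to 3.13, adjusted p = 0.519, limma), with 1.29 between the samples numbered 1 and 1.30 between those numbered 2. With the sample number as a block in the fit, the SE was 0.26 (adjusted p = 0.0518, limma), which did not pass either.

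Slc1a3, the glutamate and aspartate carrier of glia, read 4.30 and 4.31 in control ESCs, 4.94 and 4.92 in knockout ESCs, 5.28 and 5.53 in the control PGCLCs and 5.21 and 5.32 in the knockout PGCLCs. All PGCLC samples lay above all ESC samples, with the knockout ESCs between the control ESCs and the PGCLCs. Control PGCLCs exceeded control ESCs by 1.11 (SE 0.17, adjusted p = 0.0107, limma), and its 6 probe sets gave 0.11 to 2.28 for this difference. The ESC difference of 0.62 had the smallest unadjusted p of the 63 genes in ESCs (0.00711, limma), with an adjusted p of 1.0.

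In the Slc36 family Slc36a4 read 2.38 and 2.09 in control ESCs, 1.79 and 1.97 in knockout ESCs, 4.56 and 3.41 in the control PGCLCs and 3.83 and 2.79 in the knockout PGCLCs. All PGCLC samples lay above all ESC samples, and the sample numbered 1 was the higher in each PGCLC group. Control PGCLCs exceeded control ESCs by 1.75 (SE 0.43, adjusted p = 0.0465, limma). Slc36a4 has 1 probe set, and its ESC values lay at the low end of the scale. With all probe sets tested the difference did not pass (adjusted p = 0.0515, limma). It ran from 1.17 to 2.33 when 1 array was left out. The mean over 5 fibroblast markers was also higher in the sample numbered 1 of each PGCLC group. It was 3.60 and 2.91 in the control PGCLCs and 3.87 and 3.03 in the knockout PGCLCs, against 2.66 to 2.80 in ESCs. Unlike Slc36a4, this mean was higher in the knockout than in the control PGCLCs. Col1a1, Col1a2, Col3a1 and Thy1 had this order of sample numbers and Postn the reverse. Thy1 was lower in control PGCLCs than in control ESCs (-0.40), the others were higher, and 0 of the 5 passed limma. The part of these markers in the Slc36a4 difference was not tested. The lysosomal Slc36a1 ran from 4.93 to 5.79 with a knockout difference of 0.13 in PGCLCs. In the Slc43 family Slc43a2, a leucine-preferring carrier, ran from 4.52 to 5.32. Its relative Slc43a1 read 5.28 and 5.29 in the control PGCLCs and 4.69 and 4.42 in the knockout PGCLCs, a difference of -0.73 (SE 0.18, adjusted p = 0.0804, limma).

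Between the control cell types 8 of the 63 genes passed (12.7%, background 8.37%). Those higher in PGCLCs were Slc1a3, Slc36a4, Slc7a6 and Slc7a9 (background 4.64%), and those lower were Slc6a15, Slc6a7, Slc6a8 and Slc7a1 (background 3.72%). The median difference was -0.02, beside -0.03 over all genes, and 19 genes (30.2%, background 23.4%) had an unadjusted p under 0.05. A difference above 1.5 was reached by 6 genes (9.52%, background 3.49%). Of the 8 calls, Slc6a15, Slc6a8, Slc7a6 and Slc7a9 were also called in the PGCLC knockout, each in the opposite direction, and the shared control PGCLCs enter these comparisons with opposite sign. The difference between the PGCLC and the ESC effect was called for 0 of the 63 genes by limma, where 0.148% of all genes passed (0.033% higher and 0.115% lower). Of the 63 genes, 11 (17.5%, background 9.01%) had an unadjusted p under 0.05, and 5 had a difference of effects above 1.5 (7.94%, background 1.71%). The knockout effect in PGCLCs was thus not shown to differ from that in ESCs for any of these genes.

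**Figure D4:**
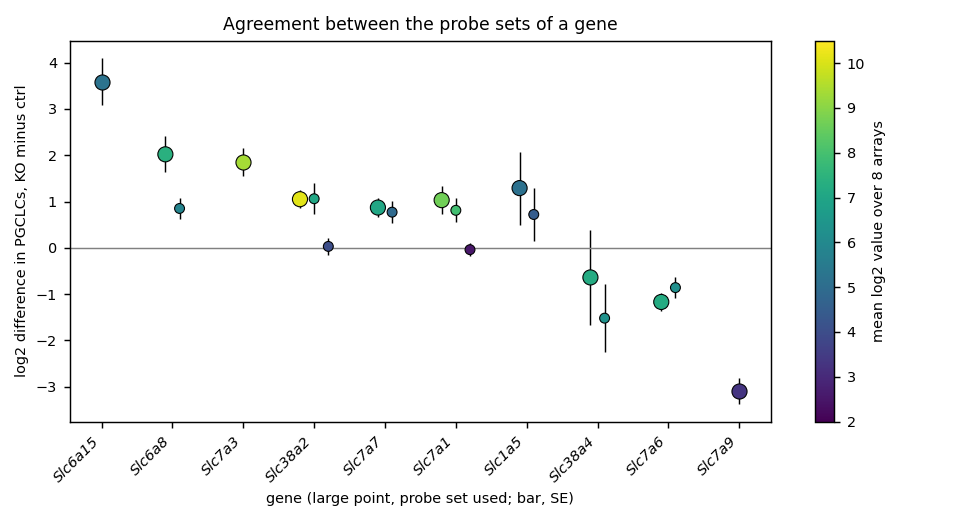
Log2 difference between knockout and control PGCLCs (vertical axis, bars give the SE) for each probe set of 10 transporter genes, coloured by the mean value over the 8 arrays, with the probe set used for the gene drawn larger. Differences of well-measured probe sets of a gene had the same sign, and the dimmest probe sets of Slc38a2 and Slc7a1 lay near 0.

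The calls in PGCLCs rested on few samples. Without control PGCLC sample 2, the array that stood apart, only Slc7a9 passed, with differences of 3.23 for Slc6a15, 1.60 for Slc6a8, 1.88 for Slc7a3, 0.98 for Slc38a2, -0.99 for Slc7a6 and -2.93 for Slc7a9. Without knockout PGCLC sample 2 only Slc7a9 passed, and without knockout PGCLC sample 1 only Slc7a3 and Slc7a9 did. Without control PGCLC sample 1, Slc38a2 (adjusted p = 0.104, limma) and Slc7a3 (adjusted p = 0.0778, limma) did not pass, and without control ESC sample 1 or 2 Slc6a8 did not (adjusted p = 0.0739 and 0.0737, limma). All 6 differences kept their sign in each of these fits. In the control cell types, only Slc6a15 and Slc7a9 passed without control ESC sample 1, 5 genes passed without control ESC sample 2, and 4 passed without control PGCLC sample 2 (Slc36a4, Slc7a1, Slc7a6 and Slc7a9).

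Markers of other cell states moved in the same samples. In the PGCLC knockout limma called 1.29% of all genes higher and 1.8% lower. Among germ cell markers, Dppa3 fell by 4.28, Kit by 1.91 and Itgb3 by 1.97 in knockout PGCLCs, 3 of 7 measured, and the mean over the list was 7.92 and 8.23 in control PGCLCs, 6.36 and 6.44 in knockout PGCLCs and 5.79 to 6.52 in ESCs. Among 8 markers of ESCs and naive pluripotency, Klf4 rose by 2.22, and the list mean was 9.36 and 9.10 in control PGCLCs, 9.62 and 9.92 in knockout PGCLCs and 10.15 to 10.31 in ESCs. Among neural markers, 1 of 6 rose, Stmn2, at 5.84 and 4.80 in control PGCLCs, 9.22 and 9.15 in knockout PGCLCs and 10.49 to 10.65 in ESCs. Among 4 epiblast markers Pou3f1 rose by 1.33. Of mesoderm, endoderm and fibroblast markers 0 of 14 were called by limma. An unadjusted p under 0.05 was reached by 1 of them, where 15.7% of all genes reached it. Their list means ran from 3.68 to 3.94, 2.97 to 3.42 and 2.66 to 3.87. In RNA of a whole sample, fewer cells of a type and less RNA per cell cannot be told apart, and the part of these markers in the transporter differences was not tested.

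Genes that use or sense amino acids gave few calls beside the transporters. Of 14 measured genes of the ATF4 response outside the transporters, Cth, the cystathionine gamma-lyase that makes cysteine, rose in knockout PGCLCs. It read 10.01 and 10.48 in control ESCs, 10.49 and 9.71 in knockout ESCs, 8.68 and 8.41 in the control PGCLCs and 10.01 and 10.52 in the knockout PGCLCs, a difference of 1.72 (SE 0.29, adjusted p = 0.0246, limma). Control PGCLCs were the lowest group, and the other 3 groups overlapped. The other 13 genes did not pass, Atf4 itself with 0.45 and Asns, the asparagine synthetase, with -0.35. The median of the list was 0.68 in PGCLCs (all genes, -0.04) and -0.32 in ESCs, where knockout ESC sample 2 had a list mean of 6.76 against 7.43 to 8.35 in the other ESC samples. Between the control cell types, where 3.72% of all genes were called lower and 4.64% higher, 3 of the 14 were lower in PGCLCs (Cth by -1.70, Nupr1 by -2.62 and Sesn2 by -1.23), with a list median of -0.97.

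Glul, the glutamine synthetase, was the only call in the PGCLC knockout among 7 measured enzymes of proline, glutamine and aspartate. It read 9.42 and 8.97 in control ESCs, 9.18 and 9.48 in knockout ESCs, 8.11 and 8.11 in the control PGCLCs and 9.24 and 9.72 in the knockout PGCLCs. Control PGCLCs lay below all other samples, and Glul rose by 1.37 in the knockout (SE 0.21, adjusted p = 0.0184, limma). Of 18 measured genes of amino acid sensing upstream of mTORC1, Lamtor3, a subunit of the Ragulator complex on lysosomes, rose by 0.79 (SE 0.14, adjusted p = 0.0302, limma). Its neighbour in that pathway, the Rag GTPase Rragd, was 2.31 lower in control PGCLCs than in control ESCs (SE 0.37, adjusted p = 0.0114, limma) and differed by 0.40 in the PGCLC knockout.

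Of 11 genes of serine, glycine and one-carbon metabolism, 0 passed limma in the PGCLC knockout, as did 0 of 6 genes of branched-chain amino acid breakdown and 0 of 13 measured amino acid transporters of other families. At an unadjusted p under 0.05, which 15.7% of all genes reached, there were 7, 1 and 3, and the medians were 0.23, -0.01 and -0.13. Between the control cell types, 3 of the 11 serine and one-carbon genes were lower in PGCLCs, Phgdh (-1.27) and Psph (-1.65) of serine synthesis and Dld (-0.71) of glycine cleavage. Of the 6 branched-chain genes, Bcat2 (-1.04) and Bckdhb (-0.73) were lower and Bckdha (1.39) was higher, with a list median of -0.43, where Bcat2 is a transaminase and the others are subunits of the keto acid dehydrogenase. In the same comparison 2 of 7 proline, glutamine and aspartate enzymes (Glul and Oat, at -1.09 and -1.30), 2 of 9 methionine and transsulfuration genes (Cth and Gclm), 4 of 18 mTORC1 genes (Rragd, Sesn2, Lamtor3 and Rraga) and 1 of 13 other transporters (Slc25a15, at -0.67) were lower, and Mtr of the methionine list was higher by 0.95. The mTORC1 list had a median of 0.23 between the control cell types, above the -0.03 of all genes, although its called genes were lower. The medians there were -0.40 for the proline and glutamine enzymes, -0.34 for the methionine list and -0.01 for the other transporters. In the PGCLC knockout the median was -0.11 for the mTORC1 list and 0.18 for the proline and glutamine enzymes. That of 9 genes of the methionine cycle and transsulfuration, in which Cth was again the call, was 0.07.

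**Figure D5:**
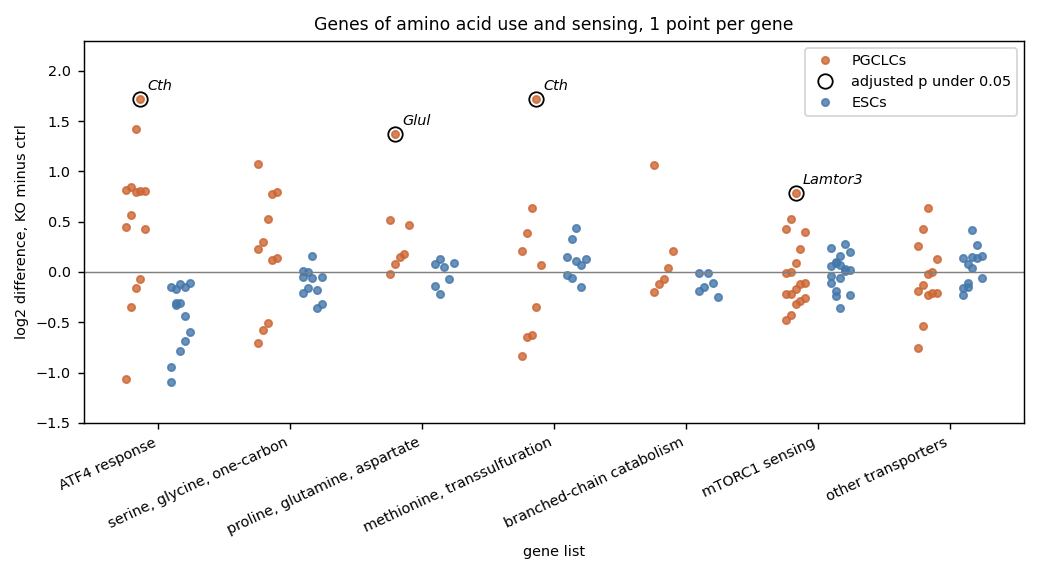
Log2 difference between knockout and control (vertical axis) in PGCLCs (orange) and ESCs (blue) for the genes of 7 lists of amino acid use and sensing, 1 point per gene, with circles at an adjusted p under 0.05 in limma. Circles mark Cth, in 2 of the lists, Glul and Lamtor3, all in PGCLCs.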

How the data were processed

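Expression was measured on 8 Affymetrix mouse arrays in 4 groups of 2 samples. The authors deposited log2 expression values normalized across arrays. The methods of the paper name RMA and the submitters' notes name GCRMA, without a version. No further normalization was applied, and 0 columns of sample values were left out. Depth has no counterpart here, and the number of arrays limits the precision. Probe sets naming 1 gene in the array annotation gave 18193 genes, and the probe set with the highest mean was used. The 63 genes had 125 probe sets, and 31 genes had 1.

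The 4 groups were fitted together with limma 3.58.1 in R 4.3.3 (4 residual degrees of freedom, eBayes with a trend), two-sided, with Benjamini-Hochberg adjustment over 18193 genes and calls at an adjusted p under 0.05. The genes and lists were chosen with earlier results of these data known. Named in full were genes called or beyond 1.5 on the log2 scale in a knockout comparison, the highest gene of each family and genes called between control cell types. Of the related lists, calls in the PGCLC knockout were counted, for the lists of amino acid use and sensing also those between control cell types, and up to 4 were named. Slc3a1, Slc7a5, Slc7a7, Slc7a11, Slc1a5, Slc38a1, Slc38a3, Slc43a1, Slc6a9 and uncalled genes of the lists were named after their values were seen. Of 15 lists, 14 had measured genes. On simulated data for the PGCLC knockout over 18193 genes, 23, 36, 44 and 46 of 50 genes changed by 1, 1.5, 2 and 3 on the log2 scale were recovered. The simulated noise was independent between samples, with the spread of each gene but no cell type, line or array effects. Recovery in the real data may therefore differ.

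Alternatives were the mean of the probe sets of a gene, other probe set choices, a filter on low values, quantile normalization, no trend, the compared groups alone, a replicate block, the fold rule of the study and each array left out. Tables were handled in Python 3.11.15 with pandas 2.3.3 and NumPy 2.4.6, and plots in Matplotlib 3.10.9.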

Additional observations from a re-analysis of the deposited data

How the results depend on the processing

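In PGCLCs the count of 6 called transporter genes became 3 (Slc6a15, Slc7a3 and Slc7a9) with these groups fitted alone, and ran from 1 to 7 when 1 array was left out, with 1 (Slc7a9) without control PGCLC sample 2 and without knockout PGCLC sample 2. Over all genes the count of 562 became 187 and ran from 87 to 609. In ESCs the count was 0 throughout, without any array too (0 to 0), and 1 by the fold rule. The difference of effects gave 0, 5 by the fold rule, and 0 to 1 without 1 array (Slc7a9 without knockout ESC sample 2). Over all genes its 27 calls ran from 1 to 56 without 1 array and became 380 by the fold rule on any probe set. Between control cell types the count of 8 ran from 2 to 9 without 1 array, and that over all genes, 1522, from 325 to 1721. Between knockout cell types the count of 1 became 0 with these groups alone, 2 without x_at and s_at probe sets, 2 with all probe sets and 2 by the fold rule, and 0 to 2 without 1 array; over all genes 422 became 56 with these groups alone and ran from 80 to 278 without 1 array. Of 23 results of named genes, 0 changed sign under these alternatives, although single dim probe sets differed, such as that of Slc7a1. For the 15 that were called, 174 values kept the call and 51 lost it, and for the 8 that were not, 112 stayed without a call and 1 gained it.

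Replicate numbers were not shown to pair the samples, since the deviations of samples with the same number correlated at 0.39 in PGCLCs and -0.33 in ESCs and the labels state no shared line. A replicate block gave 4 called genes in PGCLCs (Slc6a8 and Slc38a2 did not pass), 0 in ESCs, 0 for the difference of effects, 9 between control cell types (Slc1a5 was added, at -1.45 with an adjusted p of 0.0206 in limma) and 1 between knockout cell types. With the numbers of the knockout ESC samples crossed, an alternative chosen after seeing the data, 0 genes were called in ESCs. The causes of these shifts were not tested. With 2 arrays in a group and 27 genes at the low end of the scale, differences of small size may have been missed.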
